A study of Rattus norvegicus with 6 samples.

Results

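T cells need a second signal beside the antigen receptor before they become fully active, and the genes described here encode the receptors, ligands and growth factor receptors that give or restrain it. They were taken as 10 genes: Cd28, Ctla4, Icos, Foxp3, Il2ra, Cd80, Cd86, Cd40, Cd274 and Il7r. Of these, 8 had at least 1 probe set annotated to that gene alone, out of 14217 such genes on the array, and together they had 12 probe sets. No probe set used here was annotated to Foxp3, the transcription factor of regulatory T cells, or to Cd274, which encodes the checkpoint ligand PD-L1, so both were not analysed here. RNA came from whole lung of rats of the inbred Lewis strain, each animal on its own array. The silica group was 3 rats that inhaled a silica aerosol at 6.2 mg/m3 for 6 h per day on 5 days per week over 6 weeks. The control group held 3 rats that breathed filtered air under like conditions. The sources used here give neither the age and sex of the animals nor the interval from the last exposure to tissue collection.

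In this pathway CD28 on the T cell binds CD80 and CD86 on antigen-presenting cells and promotes activation, while CTLA-4 binds the same ligands more tightly and restrains it. ICOS, a relative of CD28 that appears once T cells are activated, binds its own ligand, ICOSL, and supports helper and regulatory T cells. CD40 on B cells, macrophages and dendritic cells receives CD40 ligand from activated T cells and raises CD80 and CD86. The interleukin 2 receptor alpha chain (CD25) marks activated and regulatory T cells, and the interleukin 7 receptor alpha chain (CD127) supports resting and memory T cells. These roles are known mainly from mouse and human.

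The array medians lay between 7.38 and 7.42 on the log2(signal + 16) scale. Lung identity was plain in both groups, with the surfactant gene Sftpc at 19546 to 24855 in silica lungs and 22598 to 23480 in control lungs. The 3-prime to 5-prime signal ratio of the beta-actin and GAPDH control probe sets, a measure of RNA quality, ran on the log2 scale from 1.15 to 1.67 in silica lungs and from 0.993 to 1.23 in control lungs. By limma at an adjusted p under 0.05 over 31042 probe sets, 1.08% of all probe sets were called. Counting the brightest probe set of each gene, 1.55% of genes rose. With the RNA quality measure as a covariate, 0 probe sets were called, and 3182 had an unadjusted p under 0.05, against 5369 without it. With any 1 array left out between 0 (without silica replicate 3, control replicate 1 or control replicate 3) and 12 (without silica replicate 1) were called, and none of these was the brightest probe set of any of the 8 genes.

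Among the 8 measured genes Icos rose, none fell, and the other 7 did not pass the threshold. The 3 receptor genes Cd28, Ctla4 and Icos lie next to each other on rat chromosome 9, with 0 annotated genes between Cd28 and Ctla4 and 0 between Ctla4 and Icos in the GRCr8 annotation. They are set side by side here after their values were seen: Icos was higher in silica lungs by every probe set, while the Cd28 and Ctla4 arrays of the groups overlapped. The Cd28 and Ctla4 probe sets were dim, with 26.1% and 25.4% of all probe sets dimmer. Differences between the 3 genes were not tested. The 250 bases before the transcript start of each, from RefSeq on GRCr8, are given with capitals marking matches on either strand to the Runx core TGTGGT or the TATA box letters TATAAA.
Icos promoter, chr9:69877549-69877798, + strand: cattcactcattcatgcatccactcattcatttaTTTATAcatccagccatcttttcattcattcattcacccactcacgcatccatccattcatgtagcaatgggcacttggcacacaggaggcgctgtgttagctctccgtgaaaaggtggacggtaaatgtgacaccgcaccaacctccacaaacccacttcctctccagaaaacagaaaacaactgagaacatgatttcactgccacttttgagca
Cd28 promoter, chr9:69660066-69660315, + strand: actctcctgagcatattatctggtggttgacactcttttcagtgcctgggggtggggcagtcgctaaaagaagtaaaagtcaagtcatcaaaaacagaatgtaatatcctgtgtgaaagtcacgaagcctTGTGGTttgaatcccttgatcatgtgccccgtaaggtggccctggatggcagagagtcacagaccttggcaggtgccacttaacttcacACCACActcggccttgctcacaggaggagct
Ctla4 promoter, chr9:69813171-69813420, + strand: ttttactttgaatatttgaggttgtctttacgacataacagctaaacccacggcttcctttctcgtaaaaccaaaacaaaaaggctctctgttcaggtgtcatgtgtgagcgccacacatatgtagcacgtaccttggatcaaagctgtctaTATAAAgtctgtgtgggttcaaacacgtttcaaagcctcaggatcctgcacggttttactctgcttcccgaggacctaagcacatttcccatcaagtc
The Runx core occurred at 2 places before Cd28 and at 0 before Icos or Ctla4, and 14.5% of all 33469 promoter windows of this length in the table held it. The TATA letters occurred at 1 place each before Icos and Ctla4, and 12.9% of windows held them. Neither the NFAT core GGAAAA, found in 21.6% of windows, nor the AP-1 letters TGANTCA, found in 6.34%, occurred in the 3 windows on either strand. No motif searched overlapped another in these windows. Only the start of the listed transcript was searched. The annotated genes Ctla4 and Icos begin further upstream. Their windows thus precede the start of that transcript and not the start of the annotated gene, and may not be the promoter of the gene.

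Icos is the clearest difference among the receptors. Its brightest probe set had signals of 343, 285 and 336 in silica lungs, against 169, 146 and 131 in control lungs. The lowest silica array was well above the highest control array. The log2 fold change (silica minus control, on the log2(signal + 16) scale) was 1.04 ± 0.13 (SE), a fold of 2.05, with an adjusted p of 0.0405 by limma over all probe sets. A second Icos probe set had 178.5, 235 and 286 in silica lungs, against 86.8, 71.3 and 70.1 in control lungs. It too rose, by 1.42 ± 0.18 on the log2 scale (limma adjusted p = 0.0405). The dimmest of the 3 had 53.4, 48.2 and 75.1 in silica lungs, against 32.3, 31.0 and 31.1 in control lungs, with a log2 fold change of 0.64 ± 0.15 (limma adjusted p = 0.123). All 3 probe sets therefore separated the groups in the same direction, and 2 passed the threshold.

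The Icos call rested on all 6 arrays. With any 1 array left out its brightest probe set had a log2 fold change between 0.96 (without control replicate 3) and 1.12 (without control replicate 1), and its limma adjusted p lay between 0.0914 (without silica replicate 2) and 0.127 (without control replicate 2). With the RNA quality covariate the value was 0.98 (limma adjusted p = 0.248), and with the replicate number as a block it was 1.04 (limma adjusted p = 0.153).

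**Figure D1:**
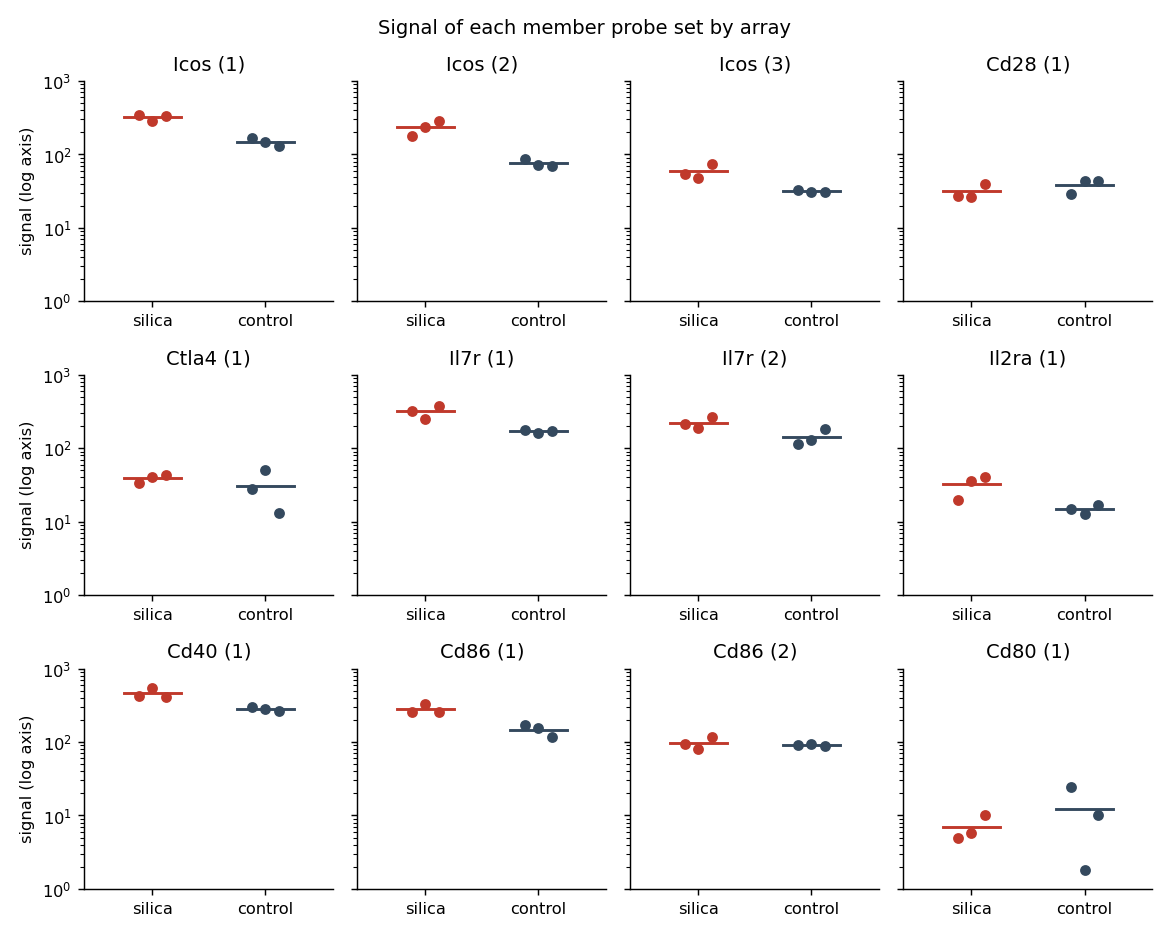
Signal of each of the 12 probe sets (log axis) in the silica arrays (left, red) and control arrays (right, dark), 1 point per animal, with a bar at the group mean; the number in brackets ranks the probe sets of a gene by brightness. The Icos, Il7r, Il2ra, Cd40 and first Cd86 panels show no overlap between groups, while Cd28, Ctla4, Cd80 and the second Cd86 panel overlap.

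Cd28, the founding receptor of the family, did not separate the groups. Its 1 probe set had 27.6, 26.7 and 40.2 in silica lungs, against 28.7, 43.0 and 43.7 in control lungs. The log2 fold change was -0.20 ± 0.17, with a 95% interval of -0.62 to 0.22 (limma adjusted p = 0.607). The probe set was dim, with 26.1% of all probe sets dimmer, so the pseudocount shrinks any difference it could show.

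Ctla4, the inhibitory receptor, had 33.5, 40.5 and 42.6 in silica lungs, against 27.8, 51.1 and 13.2 in control lungs. The control arrays spanned the silica arrays on both sides. Its log2 fold change was 0.31 ± 0.30, with a 95% interval of -0.41 to 1.03 (limma adjusted p = 0.638). Without control replicate 2 the value was 0.61 and without control replicate 3 it was 0.014. This probe set was also dim, with 25.4% of all probe sets dimmer.

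Il7r, which encodes the alpha chain of the interleukin 7 receptor, had a brightest probe set of 319, 251 and 381 in silica lungs, against 178, 163 and 169 in control lungs. The groups did not overlap, and the spread was larger among the silica animals (SD 65.1) than among the control animals (SD 7.70). The log2 fold change was 0.82 ± 0.16 (limma adjusted p = 0.0885). Its second probe set had 217, 190 and 264 in silica lungs, against 115, 128 and 183 in control lungs, with 0.61 ± 0.20 (limma adjusted p = 0.205). Both probe sets were higher in every silica array, and neither passed the threshold.

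Il2ra, the CD25 gene, was dim, with 20.0, 35.9 and 40.9 in silica lungs, against 14.7, 12.8 and 16.7 in control lungs. All silica arrays were above all control arrays, but silica replicate 1 was close to the controls. The log2 fold change was 0.63 ± 0.19 (limma adjusted p = 0.184), and it ran from 0.28 with pseudocount 64 to 1.03 with pseudocount 1.

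On the antigen-presenting side, Cd40, the receptor for CD40 ligand, had 428, 550 and 413 in silica lungs, against 301, 279 and 261 in control lungs. The groups did not overlap, and silica replicate 2 was the highest array. The log2 fold change was 0.69 ± 0.14, a fold of 1.61 (limma adjusted p = 0.0937).

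Cd86, a ligand shared by CD28 and CTLA-4, gave unlike answers from its 2 probe sets. The brightest had 253, 325 and 258 in silica lungs, against 172, 154 and 116 in control lungs, with a log2 fold change of 0.86 ± 0.17 (limma adjusted p = 0.0934). The second had 93.0, 80.3 and 116.5 in silica lungs, against 89.8, 94.3 and 87.3 in control lungs, with 0.07 ± 0.14 and a 95% interval of -0.27 to 0.41 (limma adjusted p = 0.839). The groups were apart on the first and overlapped on the second, so no direction is given for the gene.

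Cd80, the other shared ligand, was near the bottom of the array in both groups, with 7.64% of all probe sets dimmer. Its signals were 5.0, 5.8 and 10.0 in silica lungs, against 24.8, 1.8 and 10.3 in control lungs. The control arrays spanned the silica arrays, and the log2 fold change was -0.23 ± 0.30, with a 95% interval of -0.96 to 0.50 (limma adjusted p = 0.740). Without control replicate 1 the value changed sign, to 0.078.

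Across the 8 genes, taking each by its brightest probe set, 1 rose, where 1.55% of all genes rose. The median log2 fold change was 0.66, against 0.02 over the brightest probe sets of all genes. The groups did not overlap in 5 of the 8, Icos, Il7r, Il2ra, Cd40 and Cd86, each higher in silica lungs by that probe set. Over all genes 18.7% were apart in that direction. The second Cd86 probe set overlapped. The same 5 had an unadjusted limma p under 0.05, where 12.6% of all genes did in that direction. With 3 against 3 arrays the smallest p an exact two-sided permutation test can give is 0.1. Groups that do not overlap always give that value, so it adds nothing for these 5.

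**Figure D2:**
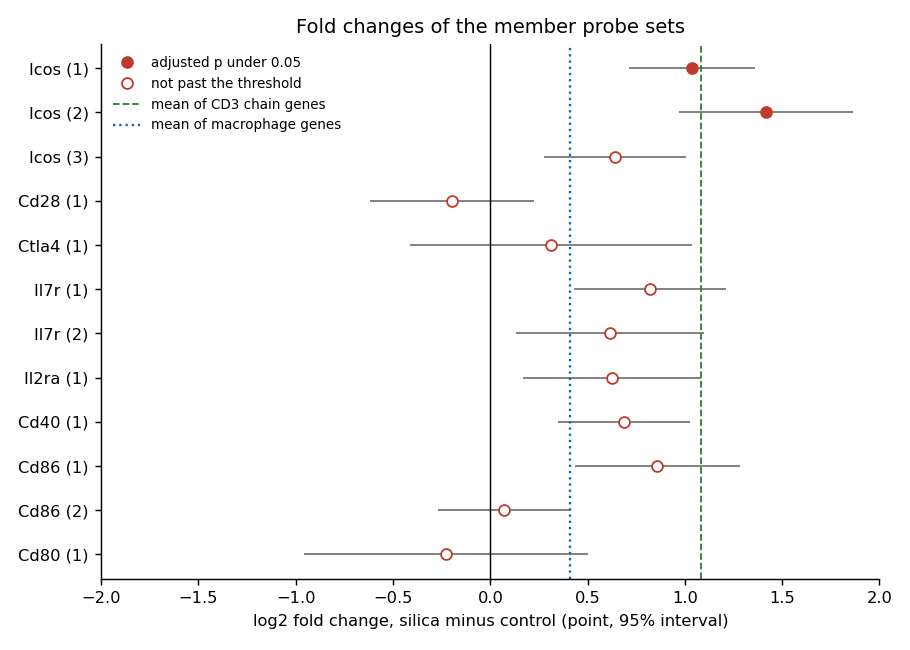
Log2 fold change (silica minus control) of each probe set with its 95% interval; filled points passed an adjusted p of 0.05, and vertical lines mark 0, the mean of 4 CD3 chain genes (1.08) and the mean of 4 macrophage genes (0.41). The filled points are the first and second Icos probe sets, and the intervals of Cd28, Ctla4, Cd80 and the second Cd86 probe set cross 0.

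The T cell receptor's CD3 chains, which every conventional T cell carries, were higher in the same lungs. By brightest probe set all 4 rose: Cd3d by 1.27, Cd3e by 1.23, Cd3g by 0.93 and Cd247 by 0.91 on the log2 scale (limma adjusted p = 0.0307 to 0.0470). A dimmer Cd3e probe set rose by 1.11 (limma adjusted p = 0.0475). A dimmer Cd247 probe set had 0.62 and did not pass (limma adjusted p = 0.231). The summed signal of the 4 brightest probe sets was 2839 to 3531 in silica lungs, against 1394 to 1634 in control lungs, and none was near 0. In whole tissue, more cells of a type and more RNA per cell cannot be told apart. Of 10 T cell marker genes, 6 rose and none fell, where 1.55% of all genes rose. Cd4, which rat macrophages also carry, had a log2 fold change of -0.0059.

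Setting each T cell gene against the mean of the CD3 chains in the same array asks whether it differed by more or less than they did. The CD3 mean itself was 1.08 higher in silica lungs on the log2 scale. Relative to it, the brightest Icos probe set differed by -0.05 ± 0.17, with a 95% interval of -0.45 to 0.35 (limma adjusted p = 0.793). Its second probe set had 0.34 ± 0.20 (limma adjusted p = 0.134) and its dimmest -0.44 ± 0.16 (limma adjusted p = 0.0268). Thus the Icos probe sets lay on both sides of the CD3 shift. The dimmest had 29.7% of all probe sets dimmer, so the pseudocount holds its value down, and 89.4% of all probe sets were called on this scale.

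Cd28 was lower relative to the CD3 chains, by -1.28 ± 0.18 with a 95% interval of -1.70 to -0.86 (limma adjusted p = 6.32e-04). On this scale 89.4% of all probe sets were called, since any gene that did not share the CD3 shift falls, so the call does not set Cd28 apart from most genes. Ctla4 had -0.77 ± 0.33 (limma adjusted p = 0.0557), Il2ra -0.46 ± 0.20 (limma adjusted p = 0.0579) and Il7r -0.26 ± 0.16 (limma adjusted p = 0.142). The second Il7r probe set had -0.47 ± 0.18 (limma adjusted p = 0.0347). For the dim probe sets of Ctla4 and Il2ra the pseudocount holds the value down, so their shortfall against the brighter CD3 chains carries that limit. For Cd28, also dim, it draws a negative value toward 0. Without the CD3 reference the Cd28 log2 fold change was -0.28 with pseudocount 1 and -0.10 with pseudocount 64.

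For the antigen-presenting side the comparison was with macrophage genes. Of the 4 measured, Cd68 rose by 0.88 (limma adjusted p = 0.0431), Adgre1 had 0.62 (limma adjusted p = 0.0733), Csf1r 0.10 and Mrc1 0.03. Their mean was 0.41 higher in silica lungs on the log2 scale, and their summed signal was 11492.5 to 12391 in silica lungs, against 9032 to 9518.5 in control lungs. Relative to that mean, the brightest Cd86 probe set differed by 0.45 ± 0.18 (limma adjusted p = 0.0861) and the second by -0.34 ± 0.13 (limma adjusted p = 0.0841). Cd40 had 0.28 ± 0.15 (limma adjusted p = 0.164) and Cd80 -0.64 ± 0.30 (limma adjusted p = 0.133). None of the 3 genes passed by limma, where 38.7% of all probe sets passed on this scale. Of the 3, 1, Cd86, had an unadjusted p under 0.05, by both of its probe sets and in opposite directions.

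Other cells can carry CD40, CD80 and CD86. Of 5 dendritic cell markers 2 rose, Clec9a by 0.98 and Cd83, an activation marker, by 0.84, where 1.55% of all genes rose. Flt3 (0.36), Batf3 (0.27) and Fscn1 (0.24) did not pass by their brightest probe sets. The summed signal of all 5 was 1708 to 1994 in silica lungs, against 1016 to 1068 in control lungs. Most of it was Cd83, with 1257 to 1573 in silica lungs, against 699 to 790 in control lungs. Of 3 B cell markers none passed and 1 was higher at an unadjusted p under 0.05 by limma, where 12.6% of all genes were. Their median log2 fold change was 0.07. The summed B cell signal was 593 to 723 in silica lungs, against 581 to 604 in control lungs. No marker of these lists was at 0, and the part of these cells in the values of Cd40 and Cd86 was not tested.

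**Figure D3:**
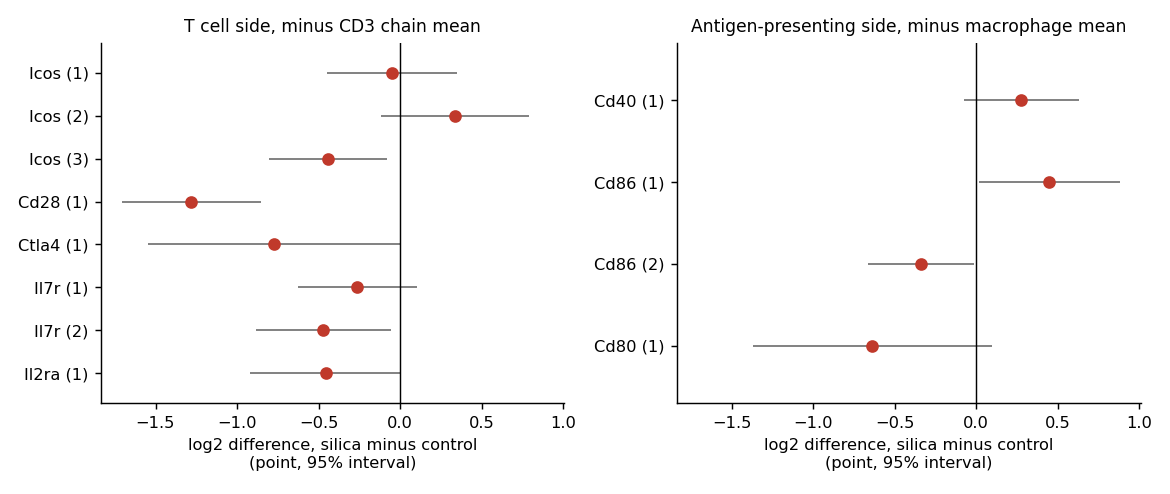
Difference between silica and control in log2 signal minus the array's mean of CD3 chain genes (left) or macrophage genes (right), with 95% intervals, 1 row per probe set. The brightest Icos probe set lies at -0.05 and Cd28 at -1.28 on the left, and the 2 Cd86 probe sets lie at 0.45 and -0.34 on the right.

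The partners of these genes were followed in 5 lists holding 61 genes, of which 45 had a probe set of their own. By brightest probe set 7 of the 45 rose and none fell, where 1.55% of all genes rose, and the median log2 fold change was 0.35. With any 1 array left out 0 of the 45 passed by limma, and 20 to 22 had an unadjusted p under 0.05. In the list of B7 and CD28 family partners and checkpoints 2 of 5 rose, Tnfrsf14 and Cd96, neither of which is a B7 or CD28 family member. The B7 family genes of the list, Icoslg, Cd276 and Vtcn1, did not pass by their brightest probe sets. Tnfrsf14, the receptor HVEM that engages the inhibitory receptor BTLA, had 469, 461 and 473 in silica lungs, against 296, 240 and 278 in control lungs (log2 fold change 0.76 ± 0.11, limma adjusted p = 0.0458). Cd96, a receptor of T and NK cells, had 132, 128 and 138 in silica lungs, against 52.6, 45.3 and 72.7 in control lungs (log2 fold change 1.05 ± 0.16, limma adjusted p = 0.0468). In both genes the silica arrays lay close together and well above every control array.

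Icoslg, the ligand of ICOS, had 251, 263 and 250 in silica lungs, against 180, 158.5 and 174 in control lungs. Its log2 fold change was 0.54 ± 0.10 and did not pass (limma adjusted p = 0.0743). A dimmer Icoslg probe set rose by 0.65 ± 0.09, with 113, 107 and 112 in silica lungs, against 62.2, 64.9 and 67.1 in control lungs (limma adjusted p = 0.0432). Receptor and ligand were thus both higher in every silica lung, with the ligand past the threshold in the dimmer of its 2 probe sets. Cd276, a B7 family member, had 0.29 by its brightest probe set and -0.28 by another, and neither passed.

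None of 6 measured TNF superfamily costimulators passed by limma, and 2, Tnfsf9 and Tnfrsf25, were higher at an unadjusted p under 0.05. Over all genes 12.6% were higher at that unadjusted p. The 4-1BB ligand gene Tnfsf9 had a log2 fold change of 0.66 ± 0.14 with groups apart. Its receptor gene Tnfrsf9 had 0.62 ± 0.36 with overlapping groups. The death receptor 3 gene Tnfrsf25 had 0.55, and Tnfrsf4, the OX40 gene, had 0.95 ± 0.45 with widely spread controls. Cd40lg, the ligand of CD40, was named after its values were seen: it had 31.4, 35.4 and 73.0 in silica lungs, against 67.1, 32.7 and 43.0 in control lungs, and these overlapped (log2 fold change -0.05 ± 0.31).

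Among interleukin 2 and interleukin 7 partners 2 of 11 rose, where 1.55% of all genes rose. Il2rb, the beta chain shared by the interleukin 2 and 15 receptors, had 660, 841 and 717 in silica lungs, against 346, 400 and 365 in control lungs (log2 fold change 0.96 ± 0.13, limma adjusted p = 0.0419). Jak3, the kinase bound to the common gamma chain, had 239, 272.5 and 278 in silica lungs, against 138, 153 and 148 in control lungs (log2 fold change 0.78 ± 0.11, limma adjusted p = 0.0422). The common gamma chain gene Il2rg had 0.74 ± 0.14 (limma adjusted p = 0.0802). The ligand gene Il7 had 0.45 by its brightest probe set and -0.07 by another, and neither passed. The beta chain and the kinase thus passed while the alpha chain genes Il2ra and Il7r did not, and the differences between these genes were not tested.

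Of 12 genes associated with regulatory T cells none passed by limma, with 3 higher and 1 lower at an unadjusted p under 0.05 and a median of 0.08. Over all genes 12.6% were higher at that unadjusted p. Those with the smallest p were Tgfb1, an inhibitory cytokine gene (0.58), the integrin gene Itgae (0.50), the interleukin 35 subunit gene Ebi3 (0.64) and the transcription factor gene Ikzf4 (-0.44). Many genes of this list are also made by other lung cells.

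In the signalling chain below the T cell receptor and CD28, 3 of 11 rose, where 1.55% of all genes rose. The adaptor gene Lat had 442, 499 and 528 in silica lungs, against 212, 241 and 239 in control lungs (log2 fold change 1.03 ± 0.11, limma adjusted p = 0.0313). The kinase gene Lck rose by 0.87 ± 0.11 and the adaptor gene Lcp2 (SLP-76) by 0.91 ± 0.12 (limma adjusted p = 0.0405 for both). A dimmer Lcp2 probe set had 0.57 ± 0.12 and did not pass (limma adjusted p = 0.0986). The exchange factor gene Vav1 had 0.73 ± 0.12 (limma adjusted p = 0.0606). The other 8 of the list did not pass, among them Grap2, an adaptor that links LAT and SLP-76 and was named after its values were seen, which had -0.08 ± 0.26 with overlapping groups.

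**Figure D4:**
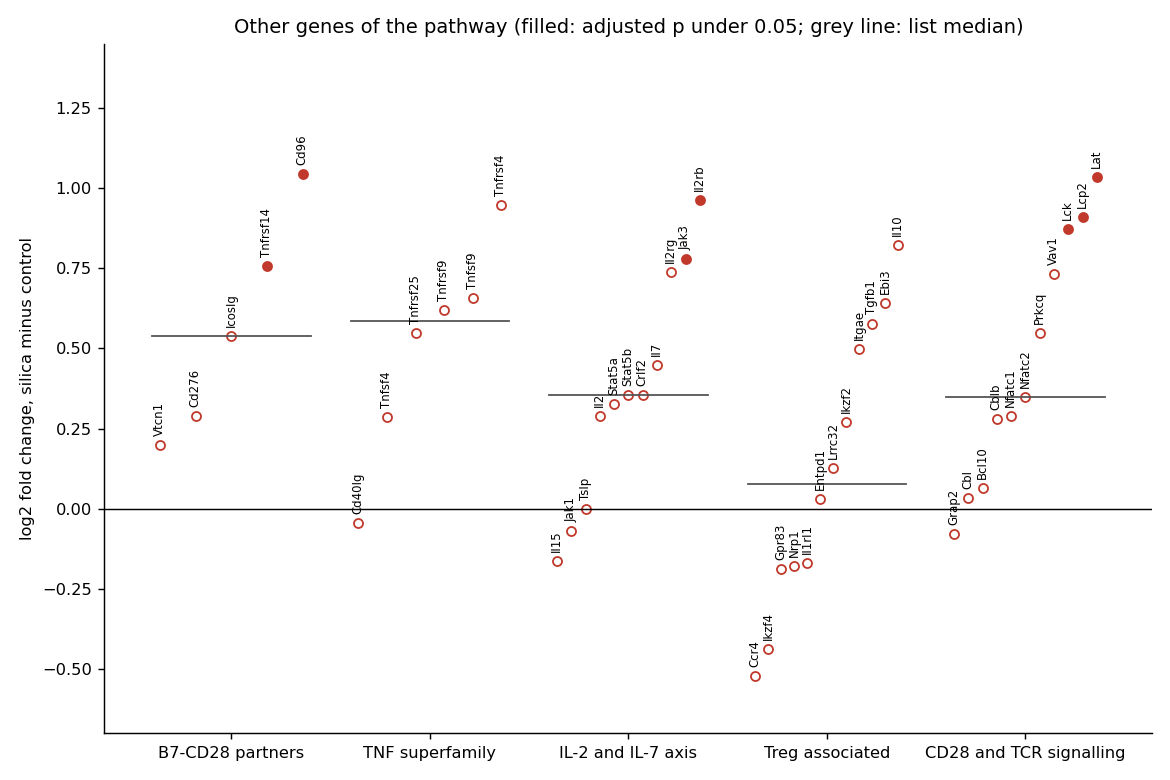
Log2 fold change (silica minus control) of the brightest probe set of each measured partner gene, 1 point per gene in 5 lists; filled points passed an adjusted p of 0.05 and grey lines are list medians. The 7 filled points, Tnfrsf14, Cd96, Il2rb, Jak3, Lat, Lck and Lcp2, lie between 0.76 and 1.05.

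By the smallest root mean square difference in log2 deviation from the control mean over the 6 arrays, among 10160 other genes, 3 genes were closest to Icos. They were the beta-tubulin gene Tubb2b (0.0727), the transcription repressor gene Bhlhe41 (0.0904) and the adaptor gene Lpxn (0.0991). Closest to Il7r were Klrd1, a receptor of NK and T cells (0.0811), Dennd1c (0.104) and Mzb1, a plasma cell and B cell gene (0.111). The 6 arrays are the same as those of the comparison, so the likeness includes the difference between silica and control.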

How the data were processed

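Lung RNA of 6 rats was hybridised to 1-colour Affymetrix arrays as biotin-labelled cRNA, per the labels' protocols. The deposited values are linear signal intensity values, 1 per probe set and array. From the values, each array's mean after trimming 2% at each end was 500.14 to 500.15, so the authors' values had been scaled per array. The sources used here do not name the summarising software. Of 31099 probe sets, 57 control probe sets were left out. Gene names came from the platform annotation, updated by gene identifier to RefSeq: 20826 probe sets had 1 gene (20758 matched), 436 had several and 9780 were not listed. A gene's brightest probe set led. Values were analysed as log2(signal + 16), which understates changes of dim genes.

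Groups came from sample titles. The silica arrays were set against the control arrays with limma 3.58.1 (lmFit, eBayes) in R 4.3.3. The fit had 4 residual degrees of freedom and a prior of 2.18. P-values of all 31042 probe sets were adjusted together (Benjamini-Hochberg), with a threshold of 0.05. The relative fits repeated this after subtracting each array's mean over the CD3 or macrophage genes. The fit was also run on simulated data with independent noise in each array. That run held no RNA quality or replicate structure and bears on no call given here. Named were all members, all list genes past the threshold with up to 4 of smallest p per list, all reference genes, and the 3 nearest patterns (mean log2 of at least 7) to the 2 members of smallest p. Members, lists and alternatives were chosen with earlier results of these data known.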

Additional observations from a re-analysis of the deposited data

How the results depend on the processing

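By brightest probe set, direction held in all alternatives for Icos (0.86 to 1.12), Il7r (0.68 to 0.97), Cd40 (0.56 to 0.76), Il2ra (0.28 to 1.03) and Ctla4 (0.014 to 0.61). The brightest Cd86 probe set had 0.70 to 0.97, and the mean of both Cd86 probe sets 0.46; the second was not followed alone, and the gene is given no direction. It reversed for Cd28 with the RNA quality covariate (0.051) and for Cd80 without control replicate 1 (-0.52 to 0.078 with 1 array left out), neither past the threshold. Il2ra, Ctla4, Cd28 and Cd80 lie in the dimmer 50% and had no value there.

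By limma, the number of probe sets called, 335 as reported, was 43 with pseudocount 1, 919 with pseudocount 64, 1675 with the dimmer 50% left out, 1862 with an intensity trend and robust spread, 1 with the replicate block, 0 with the RNA quality covariate, 0 without both control replicate 3 and silica replicate 1, and 0 to 12 with 1 array left out. At an unadjusted p under 0.05 the alternatives over all probe sets gave 3182 to 6407. The split of 290 higher and 45 lower became 1141 and 721 under the trend. Of the members, 4 were called with pseudocount 64, with the dimmer 50% left out and with the trend (Icos, Cd86, Cd40 and Il7r), and 2 with the mean of all probe sets (Icos and Cd40). It was 0 with pseudocount 1, the replicate block, the covariate, both arrays left out and any 1 array left out (0 to 0), with 4 to 6 at an unadjusted p under 0.05. Of the 45 partner genes, 7 as reported, 11 were called with pseudocount 64, 15 with the dimmer 50% left out, 13 with the trend and 12 with the mean of all probe sets. In the settings where no member passed, 0 partners passed (0 to 0 with 1 array left out), with 18 to 23 at an unadjusted p under 0.05. Some of these settings hold fewer arrays or genes, and the cause of these shifts was not tested.

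Relative to the CD3 chains, 1 gene (Cd28) as reported became 3 with pseudocount 64, 2 with quantile normalization, the replicate block, array weights or both arrays left out, 0 of the 2 kept in the brighter 50% (0 also by unadjusted p), and 1 to 2 with 1 array left out. Relative to macrophage genes, 0 became 1 with pseudocount 64 (Cd80, lower), 1 with the dimmer 50% left out (Cd86, higher) and 0 to 1 with 1 array left out (Cd80 without control replicate 2).

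Same-numbered arrays of the groups had deviations correlated by 0.0350 to 0.0924 over probe sets, and differently numbered ones by -0.0785 to -0.00219. Every array thus correlated best with its own number, but deviations within a group cancel, so values of both signs had to occur. The RNA quality measure also fell with replicate number in both groups. By number it was 1.67, 1.49 and 1.15 in silica lungs, against 1.23, 1.20 and 0.993 in control lungs. The correlations therefore do not show that the arrays were paired. No label says what a number marks, and whether same-numbered arrays share more than it was not tested. The replicate block moved the count of calls to 1.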
